A study of Mus musculus with 6 samples.

Results

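PIWI proteins are Argonaute relatives of the germline that bind piRNAs, small RNAs that silence transposons and, in meiotic cells, cut selected messenger RNAs. The 10 genes described here encode the mouse PIWI proteins Piwil1, Piwil2 and Piwil4 and the factors that make or support piRNAs, namely Mov10l1, Pld6, Gtsf1, Pnldc1, Henmt1, Mael and Btbd18. They were chosen by symbol from a table of 29333 genes, all 10 symbols were found, each with 1 entry, and all 10 passed the filter on low values. In the mouse, Piwil4 (also called MIWI2) works in the nucleus of fetal prospermatogonia, where it directs DNA methylation to transposons. Piwil2 (MILI) is made in both fetal and meiotic germ cells. Piwil1 (MIWI) appears in pachytene spermatocytes, which also transcribe long piRNA precursors from dedicated loci.

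The genes were measured by RNA sequencing of whole testes at postnatal day 16, when the leading germ cells have entered the pachytene stage. The groups were Hsf5 knockout testes (Hsf5-/-) and control testes, which carry the label wild type but may include Hsf5+/- animals according to the design text. HSF5 belongs to the heat shock transcription factor family and is made in spermatocytes. The strain, the structure of the knockout allele and whether each library came from a separate animal are not stated in the labels or the design text, and every p-value covers no more than library-to-library spread, which may be technical.

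Of the 3 libraries listed per group, knockout 1, knockout 3, control 1 and control 2 had values and were analysed. The unit throughout is the normalised read count, the reads of a gene divided by a size factor for its library. Depth lay between 16209093 and 18557898 reads. Hsf5 itself had 1926 and 1602 normalised read counts in knockouts 1 and 3, against 2541 and 3147 in controls 1 and 2, so 62.0% of the control level remained and a gene-level count does not show whether the transcript was intact. Spearman's correlation with knockout 1 over tested genes was 0.973 for control 1 and 0.947 for control 2, so the controls were unequally far from the knockouts. Sertoli cell markers summed to between 167600 and 175400 in the knockouts and between 142400 and 151200 in the controls, and early meiotic prophase markers to between 54180 and 64600 and between 66990 and 74200, so the somatic and germ cells of a testis were both present.

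In Hsf5 knockout testes, 7 of the 10 PIWI and piRNA processing genes fell and none rose. Piwil1 fell most, to 21.7% of the control level, and Pld6, Henmt1, Mael and Gtsf1 fell to between 46.0% and 55.1%. Piwil2 fell to 63.6% and Mov10l1 to 81.8%. The fetal gene Piwil4, the trimming enzyme gene Pnldc1 and the transcription regulator gene Btbd18 were not called. Over all 17480 genes tested, 13.5% were called lower and 3.28% higher (limma, Benjamini-Hochberg adjusted p under 0.05, the rule for every call here). With 1 library left out, between 5 and 6 of the 10 genes were called lower and none higher, where the shares over all tested genes lay between 6.2% and 11.7% lower and between 0.405% and 1.75% higher. At an unadjusted p under 0.05 the count was also 7 lower and 0 higher, where 20.1% of all tested genes were lower and 10.8% higher. The authors' deposited table gives 7 of the 10 lower and 0 higher at the same adjusted threshold, against 11.3% and 2.26% of the 20234 genes with an adjusted p there.

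**Figure D1:**
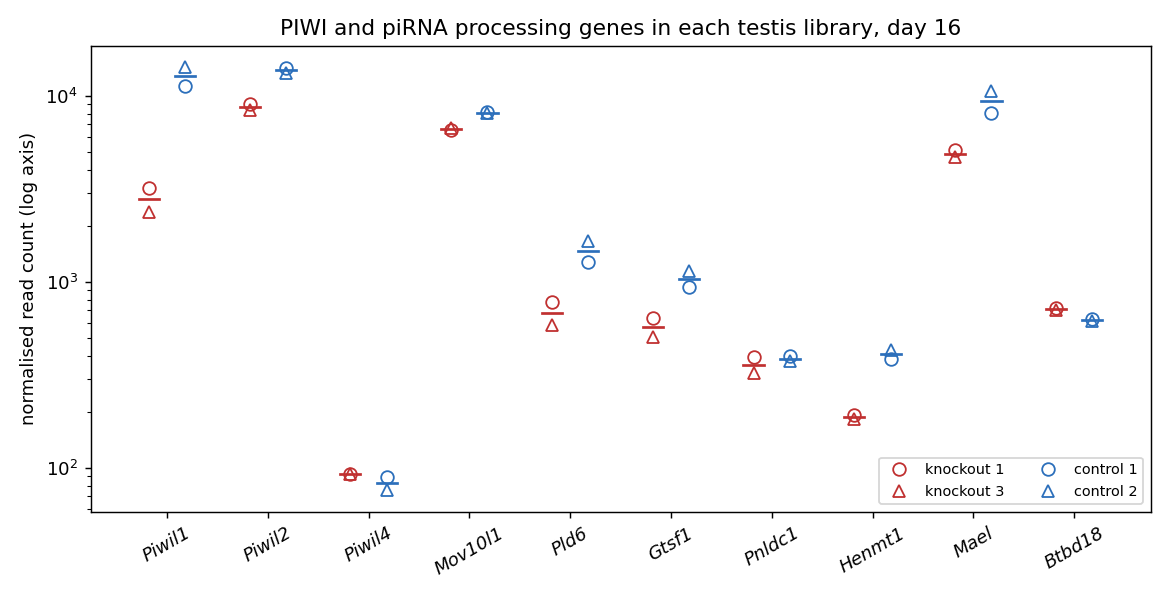
Normalised read count (log axis) of each gene in each library, with knockout libraries in red left of control libraries in blue and horizontal lines at group means (n = 2 libraries each). The red symbols lie below the blue ones for 7 genes, above them for Piwil4 and Btbd18, and overlap them for Pnldc1.

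Among the PIWI genes themselves, the pachytene member Piwil1 on chromosome 5 had 3178 and 2356 normalised read counts in knockouts 1 and 3, against 11269 and 14222 in controls 1 and 2. Both knockouts lay far below both controls, and the gap was several times the spread within either group. The mean was 2767 ± 581 in knockouts and 12746 ± 2088 in controls (SD, n = 2 each), a log2 fold change of -2.21 with SE 0.15 (limma Benjamini-Hochberg adjusted p = 0.00011). Of the 17480 genes tested, 646 had a lower log2 fold change than Piwil1.

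Piwil2, on chromosome 14, had 8996 and 8349 normalised read counts in the knockouts, against 14026 and 13247 in the controls. The groups did not overlap, and the libraries of each group lay close together. Its log2 fold change was -0.65 with SE 0.07 (limma Benjamini-Hochberg adjusted p = 0.000625).

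Piwil4, on chromosome 9, was the least abundant of the 10 genes. It had 92.2 and 92.2 normalised read counts in the knockouts, against 89.2 and 75.4 in the controls. The knockouts were slightly above both controls, by less than the controls differed from each other. The log2 fold change of 0.17 had a 95% interval from -0.37 to 0.71 and did not pass the test (limma Benjamini-Hochberg adjusted p = 0.68), so at this depth neither a modest fall nor a modest rise of Piwil4 was detectable.

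The contrast of the pachytene with the fetal gene was read as their ratio within each library, on which the scaling between libraries has almost no bearing. Piwil1 stood at 34.1 and 25.3 times Piwil4 in the knockouts, against 125 and 186 times in the controls, from counts not corrected for length. The log2 ratio was lower in the knockouts by a difference of -2.38, with a pooled SD of 0.36 between libraries of a group. An exact two-sided permutation test gave p = 0.333, the smallest that 2 libraries against 2 allow. The ratio of Piwil1 to Piwil2 was 0.353 and 0.282 in the knockouts, against 0.803 and 1.07 in the controls. The ratio of Piwil2 to Piwil4 was 96.5 and 89.6 in the knockouts, against 156 and 174 in the controls. All 3 ratios were lower in both knockouts than in both controls, and each had the same exact two-sided permutation p = 0.333.

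Per kilobase of exon (GENCODE M21 gene models), the order of the genes by level differed most in where Piwil1 stood. In knockouts, Mael came first with 2808 ± 164 normalised read counts per kilobase, followed by Piwil2 with 1640 ± 86.5, Mov10l1 with 1580 ± 15.6 and Piwil1 with 635 ± 133 (SD, n = 2). In controls, Mael had 5387 ± 1066 per kilobase, followed by Piwil1 with 2925 ± 479, Piwil2 with 2579 ± 104 and Mov10l1 with 1931 ± 10.9 (SD, n = 2). The neighbours Piwil2 and Mov10l1 overlapped in the knockouts, and the neighbours Piwil1 and Piwil2 overlapped in the controls. Lower in the order, Gtsf1 stood above Pld6 in the knockouts and below it in the controls, and the pair overlapped in both groups. Pnldc1 stood above Henmt1 in the knockouts, where they were separate, and below it in the controls, where they overlapped. Piwil4 was last in both groups, at 17.1 per kilobase in knockouts and 15.3 in controls.

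Promoter sequences are shown because A-MYB, the product of Mybl1, is known to activate Piwil1 and other piRNA genes in pachytene spermatocytes of the mouse, and because heat shock factors bind repeats of GAA. RefSeq promoters on GRCm38.p6 were matched by symbol for 8 of the 10 genes. The 250 bases before the start were searched on both strands for the MYB element in its spelling CAACTG, in the spelling TAACTG with a leading T, and in both spellings with a G in place of the inner T, which are CAACGG with a leading C and TAACGG with a leading T. They were also searched for the paired heat shock units GAANNTTC and TTCNNGAA, which do not overlap any MYB match in the sequences below. Over 32817 RefSeq promoters, 23.7% held a MYB element, 6.69% held GAANNTTC and 7.16% held TTCNNGAA. Piwil4 and Pld6 had 2 starts each, and only the most upstream was searched. For Henmt1, bases 21 to 40 after the start were not found in a GENCODE M21 transcript, so its promoter is less certain. Of the 8 genes, 2 held a MYB element, namely Piwil1 and Mov10l1, and 1, Btbd18, held TTCNNGAA. The count with a MYB element lay near the share over all promoters. The 4 sequences below are those of Piwil1, Mov10l1 and Btbd18 and, for comparison, that of Piwil4 at its most upstream start. They run 5′ to 3′ on the gene's strand and end at the base before the start, with matches in capitals.
Piwil1, chr5:128735996-128736245, plus strand: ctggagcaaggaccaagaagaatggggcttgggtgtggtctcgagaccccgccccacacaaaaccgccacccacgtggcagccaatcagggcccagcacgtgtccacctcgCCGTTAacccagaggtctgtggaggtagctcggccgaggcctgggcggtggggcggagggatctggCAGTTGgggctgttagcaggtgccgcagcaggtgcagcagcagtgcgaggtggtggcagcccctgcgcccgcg
Mov10l1, chr15:88982744-88982993, plus strand: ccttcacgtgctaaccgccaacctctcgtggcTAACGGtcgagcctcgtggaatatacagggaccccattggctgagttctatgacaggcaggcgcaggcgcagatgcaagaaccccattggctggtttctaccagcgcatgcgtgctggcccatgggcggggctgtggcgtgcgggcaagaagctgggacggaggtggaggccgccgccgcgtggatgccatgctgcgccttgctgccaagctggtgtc
Btbd18, chr2:84658829-84659078, plus strand: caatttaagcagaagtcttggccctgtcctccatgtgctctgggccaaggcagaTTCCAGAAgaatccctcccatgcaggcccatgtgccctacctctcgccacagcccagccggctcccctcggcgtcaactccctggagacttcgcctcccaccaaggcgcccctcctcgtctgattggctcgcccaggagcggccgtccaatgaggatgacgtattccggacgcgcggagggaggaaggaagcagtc
Piwil4, chr9:14740673-14740922, minus strand: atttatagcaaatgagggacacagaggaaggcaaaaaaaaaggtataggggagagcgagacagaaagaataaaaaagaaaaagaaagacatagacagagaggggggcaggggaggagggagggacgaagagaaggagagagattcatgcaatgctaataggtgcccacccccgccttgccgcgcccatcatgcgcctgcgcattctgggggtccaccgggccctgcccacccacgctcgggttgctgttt
In the Piwil1 promoter the MYB matches begin 139 and 73 bases before the start and both read on the opposite strand, as CCGTTA and CAGTTG. The Mov10l1 match, TAACGG, begins 218 bases before the start, and the Btbd18 match, TTCCAGAA, 196 bases before it. These are letter matches, and binding was not measured. All 8 promoters held more CpG pairs than the median promoter, which had 6, and Piwil1 held 16, Piwil4 10 and Gtsf1, the lowest, 7.

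Of the factors that start piRNA production, Mov10l1 is the RNA helicase that feeds long precursors into processing, and Pld6 (also called mitoPLD or Zucchini) is the mitochondrial nuclease known for cutting them. Mov10l1 had 6562 and 6654 normalised read counts in the knockouts, against 8108 and 8044 in the controls. Its fall was small but the libraries of a group nearly coincided, with a log2 fold change of -0.29, SE 0.06 (limma Benjamini-Hochberg adjusted p = 0.0153). That call was lost without any 1 of the 4 libraries (adjusted p from 0.0698 to 0.0947), while the log2 fold change stayed between -0.30 and -0.28. Pld6 had 780 and 582 normalised read counts in the knockouts, against 1271 and 1646 in the controls. The knockouts lay well below the controls, although libraries within each group differed by more than they did for Mov10l1. Its log2 fold change was -1.10 with SE 0.17 (limma Benjamini-Hochberg adjusted p = 0.00289).

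Gtsf1, a small zinc finger protein that binds PIWI proteins and aids their target cleavage, had 636 and 502 normalised read counts in the knockouts, against 932 and 1134 in the controls. It fell by 0.86 on the log2 scale with SE 0.15 (limma Benjamini-Hochberg adjusted p = 0.00522), a call lost without knockout 3 (adjusted p = 0.0553).

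The enzymes that finish the 3′ end of a piRNA gave different calls. Pnldc1 is the exonuclease that trims the end, and Henmt1 then methylates it, which protects the piRNA from decay. Henmt1 had 192 and 181 normalised read counts in the knockouts, against 385 and 427 in the controls. It was lower in both knockouts by far more than the libraries of a group differed, with a log2 fold change of -1.11 and SE 0.15 (limma Benjamini-Hochberg adjusted p = 0.00159). Pnldc1 had 392 and 324 normalised read counts in the knockouts, against 396 and 373 in the controls. Here knockout 1 lay between the controls, so the groups overlapped. The log2 fold change of -0.11 had a 95% interval from -0.44 to 0.22 and was not called (limma Benjamini-Hochberg adjusted p = 0.663). The difference between Henmt1 and Pnldc1 was not tested.

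Mael, a germ granule protein needed for transposon silencing and for pachytene piRNA precursors to reach processing, had 5068 and 4665 normalised read counts in the knockouts, against 8029 and 10641 in the controls. Control 2 stood well above control 1, and both knockouts lay below both. The log2 fold change was -0.93 with SE 0.12 (limma Benjamini-Hochberg adjusted p = 0.00148), and was -1.13 without control 1 and -0.72 without control 2.

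Btbd18 is a nuclear protein that promotes transcription through pachytene piRNA loci in mouse spermatocytes. It had 717 and 703 normalised read counts in the knockouts, against 626 and 611 in the controls. Btbd18 was the other gene, beside Piwil4, whose knockout libraries both lay above both controls, yet its log2 fold change of 0.20 (95% interval -0.04 to 0.44) was not called (limma Benjamini-Hochberg adjusted p = 0.24). Over all tested genes, the groups did not overlap with the knockouts lower in 31.9% and with the knockouts higher in 29.8%, against 7 and 2 of these 10 genes.

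**Figure D2:**
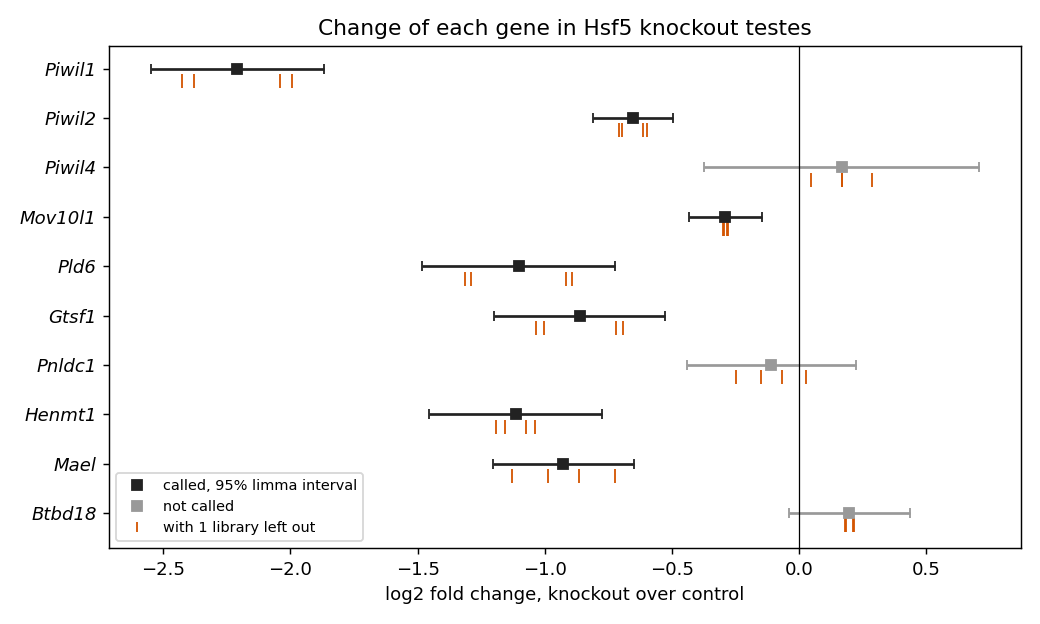
Log2 fold change of knockout over control for each gene (squares, with 95% limma intervals as bars), dark where called and grey where not, and the value after leaving out each library in turn (orange ticks). The intervals of Piwil4, Pnldc1 and Btbd18 cross 0, while the other 7 lie below it, with Piwil1 at -2.21.

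The 7 falls rest on variance that limma pools over genes. Without the mean-variance trend none of the 10 genes was called (adjusted p from 0.0836 for Piwil1 to 0.658 for Pnldc1), and without a filter on low values 3 were, namely Piwil1, Piwil2 and Henmt1. Over all tested genes, 0.229% were called lower without the trend and 2.78% without the filter. Piwil1, Piwil2, Pld6, Henmt1 and Mael stayed called whichever of the 4 libraries was left out. Scaling libraries to early prophase markers ended the limma calls of Piwil2 and Mov10l1 (adjusted p = 0.0981 and 0.903), and scaling to library totals that of Mov10l1 (adjusted p = 0.101). The signs of the 3 genes that were not called depended on the scaling: scaled to Sertoli markers, Piwil4 stood at -0.05 and Btbd18 at -0.03 on the log2 scale, and scaled to early prophase markers Pnldc1 stood at 0.14.

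In whole testis, fewer cells of a type and less RNA per cell cannot be told apart, so the genes are set here beside markers of the germ cell stages. Of 20 pachytene markers tested, 18 fell and none rose, also 18 and 0 in the authors' deposited table, with a median log2 fold change of -1.83, against 0.01 over all genes tested. They summed to 37330 and 30700 normalised read counts in knockouts 1 and 3, against 81250 and 121000 in controls 1 and 2, and none was at 0 in the knockouts. Of 20 early prophase markers 5 fell and none rose, with a median of -0.18 (at an unadjusted p under 0.05, 9 were lower and 1 higher, and the authors' deposited table has 6 lower and 0 higher). Of 18 spermatogonia markers 1 fell and 4 rose, with a median of 0.20 (at an unadjusted p under 0.05, 2 were lower and 6 higher, and the authors' deposited table has 1 lower and 2 higher). Of 20 Sertoli cell markers 7 rose and none fell, with a median of 0.20. At an unadjusted p under 0.05, 0 were lower and 10 higher, and the authors' deposited table has 0 lower and 6 higher. For all 4 lists, the shares over all tested genes were 13.5% called lower and 3.28% higher. They were 20.1% and 10.8% at an unadjusted p under 0.05, and 11.3% and 2.26% in the authors' deposited table. The pachytene markers also differed between the controls, with a median log2 difference of control 2 over control 1 of 0.89. The same difference was 0.41 for Mael, 0.37 for Pld6, 0.34 for Piwil1, 0.28 for Gtsf1 and 0.15 for Henmt1. For Mov10l1 it was -0.01 and for Piwil2 -0.08. The part of these cell stages and of the somatic cells in the falls was not tested.

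As a share of the summed pachytene markers, Piwil1 was 8.51% and 7.67% in the knockouts, against 13.9% and 11.8% in the controls. It was the single gene of the 10 with both knockouts under both controls on this scale, which 4.41% of all tested genes showed. The other 9 genes were higher on it without overlap, as were 91.5% of all tested genes, since the marker sum itself was far lower in the knockouts, so nothing is read from these 9. Piwil2, for example, stood at 24.1% and 27.2% in the knockouts, against 17.3% and 11.0% in the controls. Calm2 made up 22.3% of this marker sum as a mean over libraries, the most of any marker. The sum is weighted to abundant markers, and single markers fell by less or by more than Piwil1 (log2 fold change -2.21). Calm2 stood at -0.69 and Hspa2 at -1.39, while Crisp2 stood at -3.57 and Ldhc at -4.01. The place of Piwil1 on this scale thus depends on the markers summed, and a fall beyond that of pachytene genes was not tested.

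Relative to the early prophase markers, 6 genes were lower without overlap, 3 were higher and Mov10l1 overlapped, where 16.1% of all tested genes were lower and 47.8% higher. Piwil1 was 4.92% and 4.35% of that sum in the knockouts, against 16.8% and 19.2% in the controls. Btbd18 was higher on this scale, at 1.11% and 1.30% in the knockouts, against 0.935% and 0.823% in the controls, as were Piwil4 and Pnldc1. Relative to spermatogonia markers, 8 genes were lower without overlap and Btbd18 was higher, where 41.4% of all tested genes were lower and 18.7% higher. Piwil4 overlapped, at 0.36% and 0.363% in the knockouts, against 0.369% and 0.325% in the controls. Relative to Sertoli markers, 8 genes were lower without overlap and 2 overlapped, where 53.2% of all tested genes were lower and 9.67% higher. These sums too are weighted to abundant markers. As a mean over libraries, Clu made up 40.4% of the Sertoli sum, Tex101 18.2% of the early prophase sum and Dmrt1 17.0% of the spermatogonia sum. The shares are descriptions over 2 libraries a group.

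**Figure D3:**
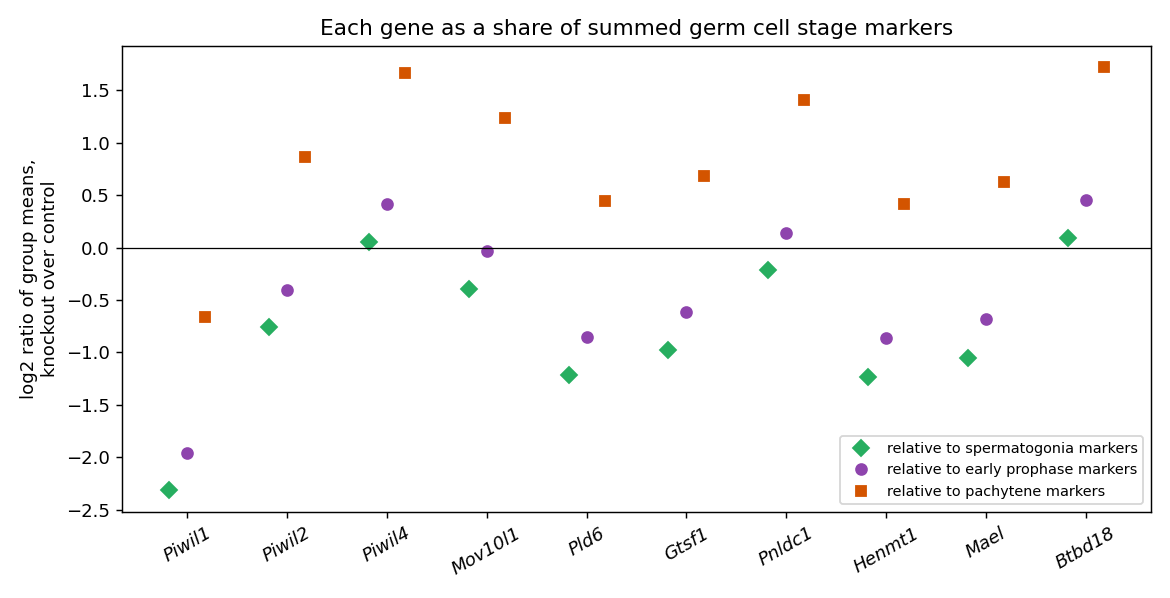
Log2 ratio of knockout over control means for each gene taken as a share of summed spermatogonia markers (green diamonds), early prophase markers (purple circles) or pachytene markers (orange squares). Piwil1 lies below 0 on all 3 scales, down to -2.32, while the other 9 genes lie above 0 relative to pachytene markers, up to 1.72 for Btbd18.

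Germ granule partners of the PIWI proteins, which hold piRNA factors in the cytoplasmic granules of germ cells, also fell in most cases. Of 18 tested, 14 fell and none rose, where 13.5% of all tested genes were called lower and 3.28% higher. The median log2 fold change was -0.70, against -0.76 for the 10 PIWI and processing genes and 0.01 over all genes tested. At an unadjusted p under 0.05, 16 were lower and 0 higher, where 20.1% of all tested genes were lower and 10.8% higher. The authors' deposited table has 14 lower and 0 higher. Tdrd6, a tudor protein of the chromatoid body, had 53.1 and 46.1 normalised read counts in the knockouts, against 1916 and 5014 in the controls. Its log2 fold change was -5.94, and was -6.63 without control 1 and -5.25 without control 2. Tdrd5, needed for pachytene piRNA precursor processing, had a log2 fold change of -1.63, and both Tdrd1, which binds Piwil2, and the helicase gene Ddx25 had one of -1.30. Fkbp6, a co-chaperone of piRNA biogenesis, named after its values were seen, had 4412 and 3945 normalised read counts in the knockouts, against 4098 and 3930 in the controls, and was not called.

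In the list of transcription regulators of pachytene piRNA loci and their MYB relatives, 2 of 3 tested genes fell and 1 rose. Over all tested genes 13.5% were called lower and 3.28% higher. The authors' deposited table has 2 of this list lower and 0 higher. Mybl1 had 1346 and 1220 normalised read counts in the knockouts, against 1837 and 2085 in the controls. It fell by 0.61 on the log2 scale with SE 0.10 (limma Benjamini-Hochberg adjusted p = 0.00406), a call lost without knockout 3 (adjusted p = 0.0551). Tcfl5, a partner of A-MYB in pachytene cells, fell by 0.96 on the log2 scale (limma Benjamini-Hochberg adjusted p = 0.00353). Mybl2, a cell cycle relative of Mybl1, rose by 0.43 (limma Benjamini-Hochberg adjusted p = 0.0433), but the call was lost without any 1 library (adjusted p from 0.0851 to 0.286), and in the authors' deposited table its adjusted p is 0.103.

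Factors of nuclear transposon silencing in fetal germ cells, the step in which Piwil4 acts, held no called gene. Of 7 tested, limma called 0 lower and 0 higher, where 13.5% of all tested genes were called lower and 3.28% higher. So few genes cannot show that the list was unchanged, and low genes had wide intervals (Dnmt3l, -0.37 to 1.48, 95%). The median log2 fold change was 0.24. At an unadjusted p under 0.05, 0 were lower and 1 was higher, where 20.1% of all tested genes were lower and 10.8% higher. The authors' deposited table has 0 in either direction. Tex15, a partner of Piwil4 that is also made in spermatocytes, had 6217 and 5615 normalised read counts in the knockouts, against 4197 and 5310 in the controls. Its log2 fold change of 0.32 was not called (limma Benjamini-Hochberg adjusted p = 0.0863) but was called higher without control 2 (log2 fold change 0.49, adjusted p = 0.0114), with libraries scaled to their totals (0.43, adjusted p = 0.0129) and with scaling to early prophase markers (0.58, adjusted p = 0.0139). The de novo DNA methyltransferase gene Dnmt3a had 3060 and 3636 in the knockouts, against 3083 and 2737 in the controls, and the groups overlapped.

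**Figure D4:**
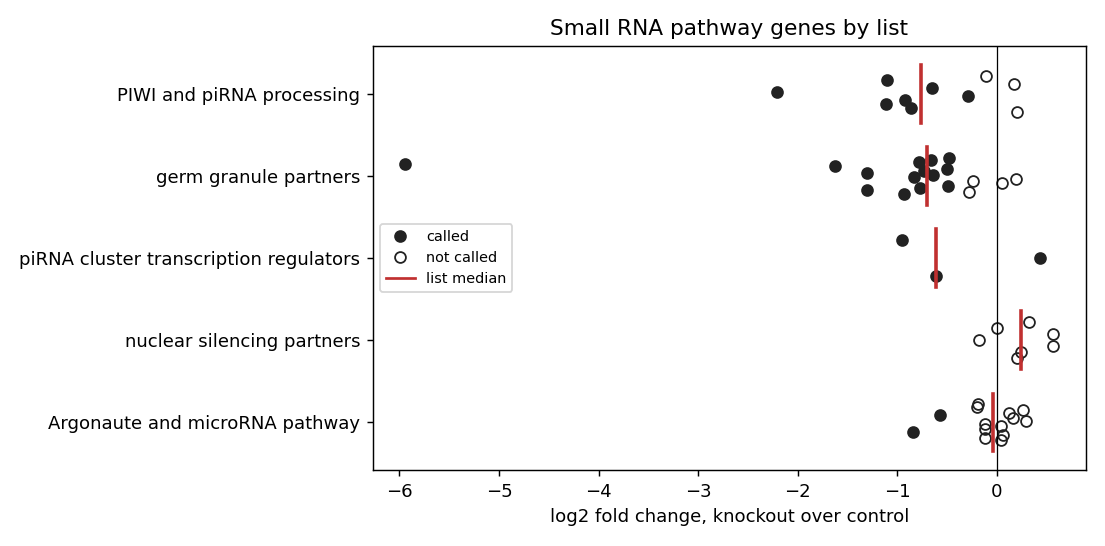
Log2 fold change of knockout over control for the genes of each list (filled circles called, open circles not called) with the list median as a red line. The medians are -0.76 for PIWI and piRNA processing, -0.70 for germ granule partners, -0.61 for the transcription regulators, 0.24 for nuclear silencing and -0.04 for the Argonaute and microRNA pathway.

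The genes whose profile over the 4 libraries lay closest to Piwil1, by Euclidean distance of centred log2 values among 11414 genes with a mean of at least 100, were Spats1, Cpn1, Fhad1, Dnah7c and Cox8c, at distances from 0.101 to 0.181. Their log2 fold changes lay between -2.21 and -2.11. The closest to Piwil4 were Ephb3, Tada2a, Maml1, Atp5g2 and Zfp420, at distances from 0.00753 to 0.0207, with log2 fold changes from 0.16 to 0.18 that were not called. These genes were chosen for their profile over the same 4 libraries, so fold changes near those of Piwil1 and Piwil4 follow from the choice. The distances rest on 4 libraries and are a description.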

How the data were processed

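Libraries were made from total RNA of whole testis with an NEBNext Ultra kit, as the labels' protocols state. Tools named in the submitters' processing notes are DESeq2, featureCounts, Bowtie2 and cutadapt, with the build mm39. Their versions and settings, the strand setting and the annotation were not given in the sources used here, so reads of overlapping genes may be mixed. Per the file headers, the table deposited by the authors holds a signal per library (read counts divided by a size factor), a log2 fold change with its standard error, a test score, and a p-value with its adjusted value. In each library 100% of values were whole multiples of its smallest value within 1e-06, and their sums are the depths given.

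limma (version 3.58.1, R 4.3.3) with a mean-variance trend was fitted to log2(value + 1) for 17480 genes with a mean of at least 10, with 6.3 prior and 2 residual degrees of freedom. Fold changes on this scale understate those of low genes. Promoters came from RefSeq (GRCm38.p6) and exon lengths from GENCODE M21 (GRCm38), not the authors' build, in Python 3.11.15.

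Named genes were the 10 members, Hsf5, up to 4 called genes per pathway list (mean of at least 20, or the 2 most abundant where none was called) and the 5 genes closest in profile to Piwil1 and to Piwil4, without predicted or unnamed genes. The members and lists were chosen with earlier results of these data known. Marker lists of spermatids and of Leydig, myoid, macrophage and endothelial cells were also examined. Of 5 spermatid markers tested 1 fell and none rose, and in each of the other 4 lists none was called by limma. Over all tested genes 13.5% were called lower and 3.28% higher. At an unadjusted p under 0.05, 2 of 7 Leydig markers were lower, where 20.1% of all tested genes were lower. The authors' deposited table has 0 calls for these 4 lists. Alternatives varied the scaling, pseudocount, filter, trend and libraries.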

Additional observations from a re-analysis of the deposited data

How the results depend on the processing

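The count of 7 falls among the 10 genes was 3 without a filter on low values and 0 without the mean-variance trend, and lay between 5 and 6 with 1 library left out, and no gene of the 10 was called higher under these alternatives. Over all tested genes, 2.78% were called lower without the filter and 0.229% without the trend. Scaling to library totals, to Sertoli markers and to early prophase markers put the median log2 fold change of all genes at 0.12, -0.21 and 0.27, and the falls among the 10 at 6, 7 and 5. The shares of all tested genes called lower under these 3 scalings were 11.5%, 24.1% and 8.03%, against 13.5% in the main fit. The shares called higher were 8.65%, 0.405% and 8.64%, against 3.28%. Under these scalings, Piwil4 was at -0.0546 and Btbd18 at -0.0263 when scaled to Sertoli markers, and Pnldc1 at 0.0005 with library totals and 0.14 when scaled to early prophase markers, all with reversed sign and none called. Dnmt3a (-0.0252), Ephb3 (-0.0598), Tada2a (-0.0611), Maml1 (-0.048), Atp5g2 (-0.0544) and Zfp420 (-0.0433) reversed likewise with Sertoli scaling. Without 1 library, Pnldc1 lay between -0.246 and 0.029. Over all genes, 2366 were lower and 573 higher. The lower count was 4220 with Sertoli scaling, 1406 with early prophase scaling, 815 without a filter and 40 without the trend. The higher count was 1513 with library totals, 71 with Sertoli scaling, 1514 with early prophase scaling, 37 without a filter and 0 without the trend. With 1 library left out the lower count lay between 1086 and 2054 and the higher count between 71 and 308. The difference of -2.38 between Piwil1 and Piwil4 lay between -2.66 and -2.09 with 1 library left out. The edgeR and DESeq2 alternatives were not run. The values were tested as a normalised signal, although whole reads can be derived from them, and the results in the authors' deposited table stand beside the limma calls. The cause of each change above was not tested. No paired analysis was possible because the analysed groups share 1 replicate number. Among the 10 genes, Piwil4 had the fewest reads and the widest interval.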

Other observations

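Argonaute proteins, the relatives of the PIWI proteins that carry microRNAs in all tissues, were measured beside them. Of 14 genes of the Argonaute and microRNA pathway 2 fell and none rose, where 13.5% of all tested genes were called lower and 3.28% higher. The count called lower lay near that share. The median log2 fold change of the 14 was -0.04, against 0.01 over all genes tested. At an unadjusted p under 0.05 there were 4 lower and 2 higher, where 20.1% of all tested genes were lower and 10.8% higher. The authors' deposited table has 2 lower and 0 higher. Ago4, an Argonaute known for a part in meiotic entry and sex chromosome silencing in mouse spermatocytes, had 628 and 551 normalised read counts in knockouts 1 and 3, against 1040 and 1071 in controls 1 and 2. It fell by 0.84 on the log2 scale with SE 0.11 (limma Benjamini-Hochberg adjusted p = 0.00138) and stayed called whichever library was left out (adjusted p from 0.005 to 0.0222). Tarbp2, a partner of Dicer, fell by 0.57 (limma Benjamini-Hochberg adjusted p = 0.0295), a call lost without knockout 1, without knockout 3 and without control 2 (adjusted p = 0.0791, 0.204 and 0.107). Ago1, Ago2 and Ago3, named after their values were seen, had log2 fold changes of 0.04, -0.12 and 0.06 and were not called. Mov10, the paralog of Mov10l1 made in most tissues and also named after its values were seen, had 2367 and 2630 normalised read counts in the knockouts, against 2096 and 1974 in the controls, a log2 fold change of 0.29 just outside the threshold (limma Benjamini-Hochberg adjusted p = 0.0506).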
